A study of Mus musculus with 4 samples.

Results

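The response of wild-type mice to bleomycin was read from 2 of the 4 RNA-Seq libraries of the series, PBS-WT and BLEO-WT, each made from cells labelled as ILC2 that were sorted from mouse lungs. PBS-WT came from C57BL/6 wild-type mice given PBS and BLEO-WT from C57BL/6 wild-type mice given bleomycin, and *Hps1* was intact in both. The other libraries, PBS-HPS1 and BLEO-HPS1, came from Hps1-/- mice, which lack a gene needed to make lysosome-related organelles, given the same agents. Cells were taken as Lineage-Thy1.2+ICOS+T1/ST2+ and kept in culture with IL-2 before RNA was extracted, and the library of PBS-WT was made from 22405 cells and that of BLEO-WT from 84166. The study's methods state an age of 10 weeks for mice given bleomycin by intraperitoneal injection and none for those given it into the trachea, and the sources used here give neither the route for these libraries nor the number of mice pooled in each. PBS-WT held 72513619 counted reads, the fewest of the series, and BLEO-WT 87638154, the most. Of 49315 genes in the deposited counts, 14191 had at least 1 CPM (a gene's reads as a share of the TMM-scaled library size, as edgeR gives it) in either wild-type library and were compared. Each group had 1 library, so there is no replicate check: no p-value is given, a gene counts as higher or lower in BLEO-WT when the log2 ratio of BLEO-WT to PBS-WT is at least 1 in size (2-fold), and each interval given is an exact 95% interval that covers counting error only.

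Group 2 innate lymphoid cells (ILC2s) are lymphocytes without antigen receptors that sit in mucosal tissue, answer alarmins such as IL-33 through the receptor T1/ST2, and release type 2 cytokines and growth factors. Bleomycin breaks DNA and injures the lung epithelium, and in mice it is the usual way to bring on inflammation and scarring. During such injury resident alveolar macrophages, which clear surfactant from the air spaces, are partly replaced by macrophages made from blood monocytes, which can take on a lipid-loaded, matrix-remodeling state. The comparison asks which genes differed between cells of the same gate taken with and without bleomycin in mice with intact *Hps1*.

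The label was first set beside the markers of 16 cell types. Transcripts of the gate were present: *Thy1* was at 306 CPM in PBS-WT and 224 in BLEO-WT, *Icos* at 79.9 and 51.4, and *Il1rl1*, which encodes T1/ST2, at 40.9 and 37.3. *Gata3*, the transcription factor that ILC2s depend on, was at 38.4 and 25.1 CPM. The most abundant cell-type transcripts, however, were those of macrophages. Per kilobase of transcript, *Lyz2*, the lysozyme of myeloid cells, was at 7164 CPM in PBS-WT and 9988 in BLEO-WT, against 11.9 and 7.80 for *Gata3* and 7.72 and 7.03 for *Il1rl1*. *Lyz2* ranked 2 among all compared genes by this measure in both libraries, whereas *Il1rl1* ranked 6875 and 7259. None of the 72 markers was at 0 reads in either wild-type library, so transcripts of T cells, B cells, neutrophils, epithelium, endothelium, fibroblasts and erythroid cells were all counted, including *Cd3e* (83.5 and 69.9 CPM) and *Itgam*, which encodes CD11b (99.8 and 236 CPM), both antigens that the gate removes. By these markers the libraries hold RNA of a mixture in which macrophages are prominent, and they are called here by their labels PBS-WT and BLEO-WT. In such bulk libraries, fewer cells of a type and less RNA per cell cannot be told apart.

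The summed levels of several marker sets differed between the libraries. The 6 monocyte and interstitial macrophage markers summed to 1137 CPM in PBS-WT and 4415 in BLEO-WT, 3.88-fold higher, and the 6 fibroblast markers to 168 and 546 CPM, 3.24-fold higher. Most of the fibroblast sum came from the collagen genes *Col1a1*, *Col1a2* and *Col3a1*. The other fibroblast markers, *Pdgfra*, *Dcn* and *Tcf21*, were higher by less than 2-fold, with log2 ratios of 0.44, 0.97 and 0.70. The 4 mast cell, basophil and eosinophil markers went the other way, from 29.4 to 3.58 CPM, 8.19-fold lower. Lower sums in BLEO-WT, by less than 2-fold, were seen for dendritic cells (137 to 69.5 CPM), alveolar type 2 cells (1070 to 559), NK cells and ILC1s (68.4 to 36.7), neutrophils (1240 to 715), B and plasma cells (128 to 75.4), alveolar macrophages (4557 to 3563), T cells (485 to 415) and ILC2s (874 to 739). How much of any difference below comes from the makeup of the libraries was not tested.

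Of the 14191 genes compared, 724 (5.1%) were at least 2-fold higher in BLEO-WT and 1159 (8.17%) at least 2-fold lower, so that 38.4% of the genes past the threshold were higher. The median log2 ratio of all genes was 0.10. With library totals in place of TMM factors every log2 ratio fell by about 0.26 and the split was 432 higher to 1862 lower, or 18.8% higher. The ratio also followed the composition of the transcript. Across genes, which are not independent replicates, Spearman's rho of the log2 ratio was 0.450 with GC content and -0.204 with transcript length. In the 10% of genes with the lowest GC content (29.6 to 41.9%) the median log2 ratio was -0.61 and 27.7% of genes were called lower, whereas in the 10% with the highest it was 0.34 and 3.39% were. Genes called lower had a median GC content of 44.4%, genes called higher 53.2% and all genes 50.2%. A loess fit on GC content and length took both correlations to near 0 (-0.003 and 0.002) and left 713 genes higher (5.03%) and 777 lower (5.48%) of 14168 with a known transcript. Without and with this correction, 573 genes were higher in both and 695 lower in both, while 464 of the genes called lower and 151 of those called higher lost the call. The number of cells that went into the library, 22405 against 84166, differed between the same libraries, and its part in this trend cannot be told apart from that of treatment. Corrected values are given below as "corrected" for named genes where they change a call. Counts of list members given below are to be read beside the shares of all genes, 5.1% higher and 8.17% lower.

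**Figure D1:**
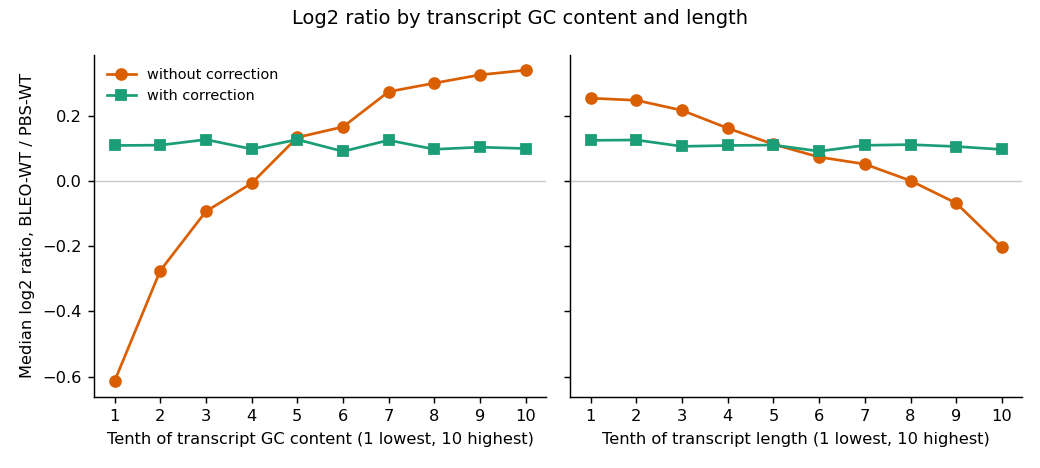
Median log2 ratio of BLEO-WT to PBS-WT (y axis) in 10 equal bins of genes by transcript GC content (left, x axis) and by transcript length (right, x axis), without (circles) and with (squares) the loess correction. Without it the median runs from -0.61 in the GC-poorest bin to 0.34 in the GC-richest and from 0.25 in the shortest to -0.20 in the longest; with it the medians stay between 0.09 and 0.13.

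Many of the genes with the highest ratios are known in macrophages. *Rnase2a*, an eosinophil-associated ribonuclease gene (chromosome 14 from 51255262 to 51256112 in GRCm38), had 22 reads in PBS-WT and 1705 in BLEO-WT, or 0.282 and 21.7 CPM, a log2 ratio of 6.15 (5.66 to 6.95). *Arg1*, which encodes arginase 1 and marks alternatively activated macrophages as well as ILC2s (chromosome 10 from 24915221 to 24927484), was at 8.34 and 387 CPM, 46.4-fold higher, with a log2 ratio of 5.53 (5.42 to 5.65). Complement factor D (*Cfd*) followed at 0.295 and 11.6 CPM and the amino acid transporter gene *Slc36a2* at 1.42 and 44.7 CPM. *Cd5l* and *Fcna*, products of tissue macrophages that bind lipids and microbial sugars, were at 0.372 and 10.8 CPM and at 3.93 and 66.8 CPM. In PBS-WT 3 reads were worth 0.0385 CPM, so that none of these values rests on a count at the limit of detection.

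Several of these genes were also abundant in BLEO-WT. *Apoe*, the main apolipoprotein of macrophages (chromosome 7 from 19696109 to 19699188), was at 1029 CPM in PBS-WT and 12175 in BLEO-WT, 11.8-fold higher, and ranked 86 and 3 among all compared genes per kilobase. *Gpnmb*, a lysosomal glycoprotein of lipid-laden macrophages, was at 134 and 1552 CPM (log2 ratio 3.54), *C1qb*, a chain of the complement component C1q, at 100.2 and 1214 CPM (12.1-fold), and *Ecm1*, a secreted matrix protein, at 44.0 and 662 CPM (3.91). The rest of the 15 named genes were *Syngr1*, a vesicle protein, *Tmem37*, *Timp1*, an inhibitor of metalloproteinases, *Trnp1* and *Serpina3n*, an inhibitor of serine proteases, with log2 ratios of 4.37, 3.76, 3.75, 3.74 and 3.73. All 15 were past 2-fold with and without the correction, by the rule that named them.

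Of the 15 genes with the lowest ratios 14 are reported here, and most of these were of 3 kinds. Immunoglobulin segments were left out of this naming. *Mobp*, which encodes a protein of central nervous system myelin, came first: it had 3710 reads in PBS-WT and 40 in BLEO-WT (47.6 and 0.510 CPM, log2 ratio -6.48). *Kif5a* (51.5 to 3.67 CPM), *Mal* (933 to 76 reads) and the glutamate transporter gene *Slc1a2* (15.5 to 1.76 CPM) are also genes of neurons and glia. These transcripts set PBS-WT apart from the other 3 libraries, since *Mobp* was at 0.151 CPM in PBS-HPS1 and 0.158 in BLEO-HPS1. Further genes of this kind, chosen after their values were seen, did not all run the same way. *Mog* had 213 reads in PBS-WT and between 1 and 5 in each of the others, *Opalin* 90 and between 1 and 2, and *Cldn11* 639 and between 42 and 50. *Mbp* was at 353 CPM against 164 to 180 (BLEO-WT to PBS-WT -0.98, corrected -1.02). *Gfap*, the marker of astrocytes, was at 4.27 CPM in PBS-WT and 4.36 in BLEO-WT. *Cnp* was at 120.6 CPM in PBS-WT and 106.9 in BLEO-WT, and at 77.9 in PBS-HPS1 and 218.6 in BLEO-HPS1. The low level of *Mobp*, *Mog*, *Opalin* and *Cldn11* in BLEO-WT was thus shared by both Hps1-/- libraries, with and without bleomycin. No neural tissue is named in the labels, and the part of treatment in these differences was not tested.

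The second kind belonged to mast cells, basophils and neutrophils. *Ms4a2*, the beta chain of the high-affinity IgE receptor, had 798 reads in PBS-WT and 32 in BLEO-WT (10.2 and 0.408 CPM, log2 ratio -4.57), and the basophil protease genes *Prss34* and *Mcpt8* were at 26.1 and 2.22 CPM and at 11.6 and 1.49 CPM. *Ltf*, lactoferrin of neutrophil granules, was at 70.0 and 8.11 CPM (-3.10). The third kind held genes known in alveolar macrophages. *Fabp1*, a fatty acid binding protein (chromosome 6 from 71199827 to 71205023), was at 38.5 and 2.33 CPM, a log2 ratio of -4.03 (-4.27 to -3.83), and *Ear1* (chromosome 14 from 43818765 to 43875517) at 214 and 26.7 CPM, 8.01-fold lower (log2 interval -3.07 to -2.94). *Ear1* belongs to a family of near-identical ribonuclease genes between which reads may have been split. *Cpne5* (92.1 to 8.26 CPM), *Tc2n*, *Dnah11* (log2 ratios -3.34 and -3.32) and *Cyp11a1* (13.5 to 1.66 CPM) completed the list.

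**Figure D2:**
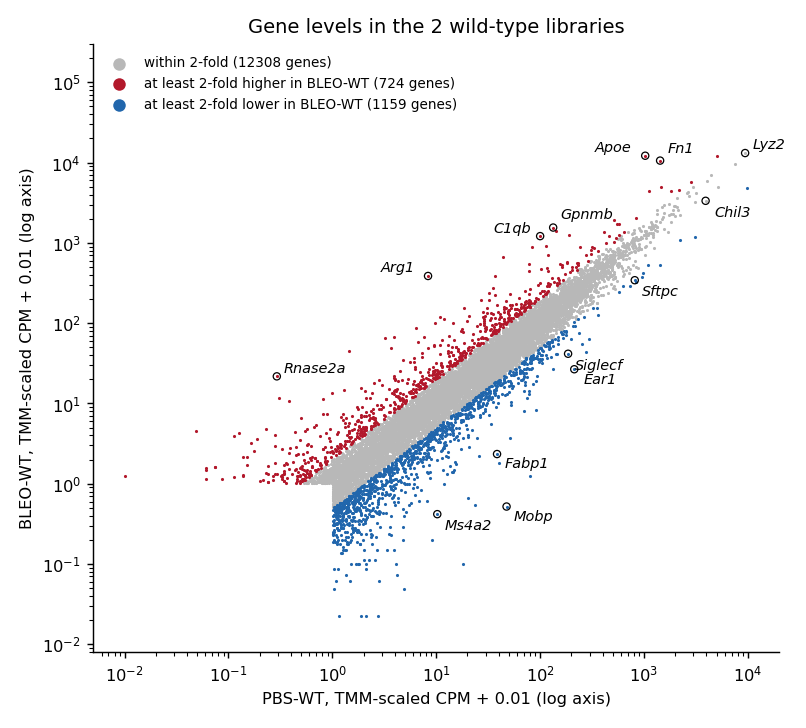
Level of each of the 14191 compared genes in PBS-WT (x axis) and BLEO-WT (y axis), as TMM-scaled CPM plus 0.01 on log axes, with genes at least 2-fold higher in red, at least 2-fold lower in blue and named genes ringed. *Apoe*, *Fn1* and *Gpnmb* are both abundant and higher in BLEO-WT, while *Lyz2* and *Chil3* lie within 2-fold.

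Genes of the lipid-associated macrophage state, which is marked by TREM2 signaling, lipid uptake and lysosomal activity, had a median log2 ratio of 2.01 (corrected 2.23) over 20 genes, against 0.10 over all genes. Of the 20, 15 were at least 2-fold higher in BLEO-WT and 1 lower. *Trem2*, the lipid-sensing receptor, was at 36.8 CPM in PBS-WT and 386 in BLEO-WT (log2 ratio 3.39, 3.34 to 3.45), *Spp1*, which encodes osteopontin, at 114 and 907 CPM (2.99), and *Cd63* at 119 and 716 CPM (2.59). The macrophage elastase gene *Mmp12* was at 37.0 and 227 CPM (2.62) and the membrane collagenase gene *Mmp14* at 32.6 and 239 CPM (2.87). *Fabp5*, a fatty acid binding protein, was at 71.6 and 252 CPM. The 1 member that was lower was the lipoprotein lipase gene *Lpl*, at 957 and 378 CPM (-1.34, corrected -0.96), which is also strongly expressed in alveolar macrophages. The 20 genes together took 13437 CPM in PBS-WT and 44372 in BLEO-WT.

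Of the 30 genes of monocytes and interstitial macrophages, 16 were higher and 2 lower, with a median log2 ratio of 1.05 (corrected 0.90). The other chains of C1q were higher too, with *C1qa* at 143 and 1391 CPM and *C1qc* at 83.4 and 885 CPM (log2 ratios 3.28 and 3.41). *Stab1*, a scavenger receptor, was at 77.4 and 551 CPM (2.83), *Folr2* at 4.44 and 25.3 CPM (2.50), the haemoglobin scavenger receptor gene *Cd163* at 33.4 and 134 CPM (2.00) and the endotoxin co-receptor gene *Cd14* at 519 and 1914 CPM (1.88). *Csf1r*, the receptor that macrophages need to survive, was at 642 and 1347 CPM (1.07, corrected 0.90). The members that mark blood monocytes did not share this direction: *Ly6c2* was lower, at 139 and 63.4 CPM (-1.14), as was *Ms4a4c* (71.0 and 18.4 CPM), and *Ccr2* was at 332 and 330 CPM (log2 ratio -0.01).

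Among 22 genes of alveolar macrophages, 11 were lower, 1 was higher and 10 were within 2-fold, with a median log2 ratio of -0.93 (corrected -0.78). *Siglecf*, the lectin by which these cells are gated, was at 186 CPM in PBS-WT and 41.6 in BLEO-WT (-2.16), *Krt79* at 274 and 44.0 CPM (-2.64), *Krt19* at 251 and 54.6 CPM (-2.20), *Cidec*, a lipid droplet protein, at 132 and 27.2 CPM (-2.28) and *Plet1* at 360 and 125 CPM (-1.53). *Pparg*, the transcription factor on which alveolar macrophages depend and which is also listed with ILC2 factors, was at 72.4 and 36.8 CPM, a log2 ratio of -0.97 that is just inside the threshold and just past it with the correction (-1.04). Other well known members were at similar levels in both libraries. *Chil3*, the most abundant of the list, was at 3926 and 3341 CPM, *Marco* at 73.5 and 76.3 and *Itgax*, which encodes CD11c, at 713 and 741. The list therefore divided between genes that were several-fold lower and genes that were not, and the 1 higher member was *Fabp5*.

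Lysosomal genes leaned toward BLEO-WT. Of 42 lysosomal enzymes and membrane proteins, 41 had a log2 ratio above 0 with TMM scaling and 17 were past 2-fold, with a median of 0.85 (corrected 0.83) and none lower. Cathepsins D, B, S and L, the main lysosomal proteases, were at 1476 and 5009 CPM (*Ctsd*), 1121 and 4434 (*Ctsb*), 1814 and 4412 (*Ctss*) and 117 and 482 (*Ctsl*). *Psap*, the precursor of the sphingolipid activators, was at 5048 and 12008 CPM, and *Grn*, progranulin, at 547 and 1709 CPM. *Tfeb*, the transcription factor that drives lysosomal genes, was at 80.7 and 86.8 CPM (log2 ratio 0.11). Among 24 genes of iron and haem handling, 5 were higher and 1 lower, with a median of 0.55. The ferritin genes *Fth1* (2838 and 5712 CPM) and *Ftl1* (2184 and 4589 CPM) were just past 2-fold and fell within it with the correction (0.80 and 0.78), *Steap3*, an iron reductase gene, was at 12.9 and 44.9 CPM, and *Slc40a1*, the iron exporter ferroportin, was lower with a log2 ratio of -1.17 (corrected -0.83).

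In the complement list, 11 of 22 genes were higher and 1 lower, with a median log2 ratio of 0.90 (corrected 0.98). Besides the C1q chains, which also count in the monocyte and interstitial macrophage list, and *Cfd*, these included *C4b* (32.5 and 197 CPM), the anaphylatoxin receptor gene *C3ar1* (18.7 and 154 CPM, log2 ratio 3.05) and properdin, *Cfp* (110 and 253 CPM, corrected 0.96). The central component *C3* was at 396 and 350 CPM (-0.18). The membrane inhibitor gene *Cd55* was the 1 lower member, at 24.1 and 11.9 CPM (-1.01, corrected -0.47).

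**Figure D3:**
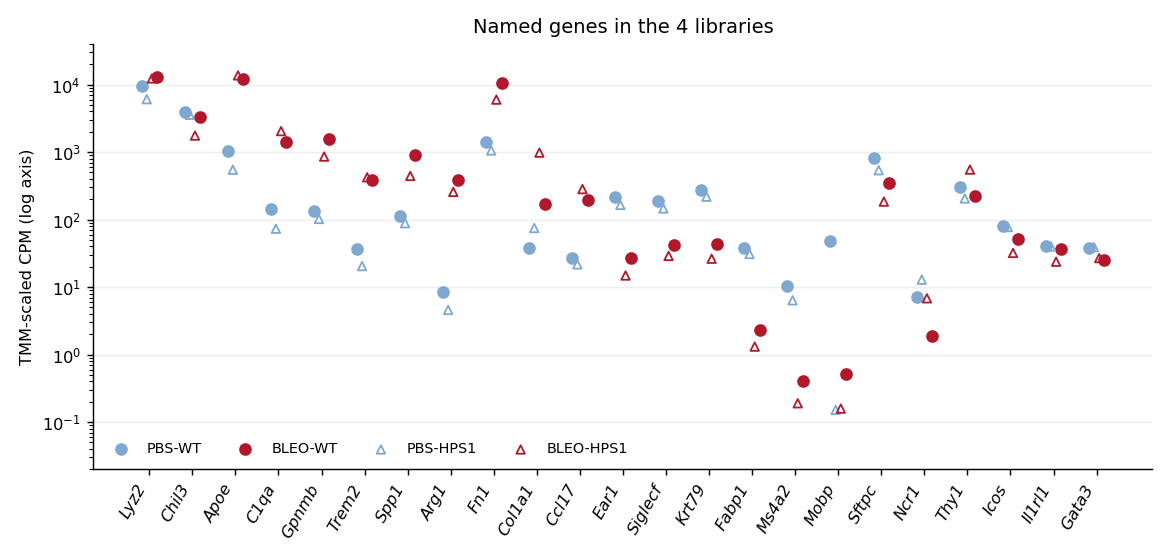
TMM-scaled CPM (y axis, log axis) of 23 genes (x axis) in PBS-WT and BLEO-WT (filled circles) and in PBS-HPS1 and BLEO-HPS1 (open triangles), with PBS in blue and bleomycin in red and 1 library per point. *Apoe* lies at 1029 in PBS-WT and 12175 in BLEO-WT, *Siglecf* at 186 and 41.6, and *Mobp* is at 47.6 in PBS-WT but between 0.151 and 0.510 in the other 3 libraries.

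Of 26 collagen chains, 11 were higher in BLEO-WT and 1 lower (median log2 ratio 0.69, corrected 0.56), and of 69 other matrix genes 27 were higher and 2 lower (median 0.85, corrected 0.74). *Fn1*, fibronectin, was by far the most abundant at 1432 CPM in PBS-WT and 10587 in BLEO-WT, 7.39-fold higher (log2 ratio 2.89, 2.88 to 2.90). It made up most of the summed level of the list, which was 3549 and 15216 CPM. The fibrillar collagens were far lower, with *Col1a1* at 38.2 and 170 CPM (2.15), *Col1a2* at 45.3 and 152 (1.74) and *Col3a1* at 51.6 and 170 (1.72). Elastin, *Eln*, was at 30.6 and 154 CPM (2.33), the gelatinase gene *Mmp2* at 7.34 and 38.0 CPM (2.37) and the protease inhibitor gene *Timp1* at 0.808 and 11.2 CPM (3.75). *Tnc*, tenascin C of wounded tissue, was at 2.30 and 11.6 CPM, whereas *Postn*, periostin, was lower at 15.5 and 7.38 CPM (-1.07, corrected -0.78).

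Of 34 fibroblast genes that encode no matrix protein, 7 were higher and none lower (median 0.69), among them *Scara5* (1.87 and 6.75 CPM), *Cd248* (1.55 and 4.71 CPM) and *Gpx3* (47.5 and 152 CPM). *Pdgfra*, the receptor that defines lung fibroblasts, was at 16.4 and 22.4 CPM (log2 ratio 0.44) and *Tcf21* had a log2 ratio of 0.70. Genes of contractile cells and myofibroblasts were near their level in PBS-WT: 1 of 21 was higher and 1 lower (median 0.31), and *Acta2*, the alpha smooth muscle actin that marks myofibroblasts, was at 4.73 and 6.47 CPM. In the TGF-beta pathway, whose ligands drive matrix production, 5 of 33 genes were higher and 1 lower (median 0.26). *Tgfb1* was at 380 and 417 CPM (0.13), *Tgfb2* at 5.35 and 1.86 (-1.51), and the higher members included the target gene *Tgfbi* (831 and 2024 CPM), the latent TGF-beta binding protein gene *Ltbp3* (17.4 and 79.8 CPM) and the integrin gene *Itgb5* (164 and 534 CPM).

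Chemokines showed both directions, with 10 of 28 higher, 4 lower and a median log2 ratio of 0.88 (corrected 0.72). *Ccl17*, an attractant of type 2 lymphocytes, was at 27.0 CPM in PBS-WT and 193 in BLEO-WT (2.84, 2.77 to 2.91). The monocyte attractant genes *Ccl2* (17.9 and 77.1 CPM, 2.10), *Ccl7* (2.80 and 19.6 CPM, 2.80) and *Ccl12* (0.936 and 4.73 CPM, 2.31) were higher as well. The ratio of *Ccl8*, at 2.04 and 14.4 CPM, was 2.81. The gene of the neutrophil attractant *Cxcl1* was at 29.6 and 121 CPM. That of the eosinophil attractant *Ccl24* was at 1.53 and 6.96 CPM. *Cxcl16*, which macrophages carry on their surface, was at 51.5 and 229 CPM. The lower members were *Cxcl15*, a chemokine of lung epithelium (52.6 and 17.8 CPM), *Xcl1*, *Cxcl9* (-1.19, corrected -0.87) and *Cx3cl1*. Among 22 chemokine receptors 2 were higher, among them *Ccrl2* (314 and 889 CPM), and 5 were lower, including *Cxcr6*, the receptor for CXCL16, at 71.9 and 16.9 CPM (-2.09), and *Ccr3*, a receptor of eosinophils and basophils, at 6.79 and 0.599 CPM (-3.45).

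**Figure D4:**
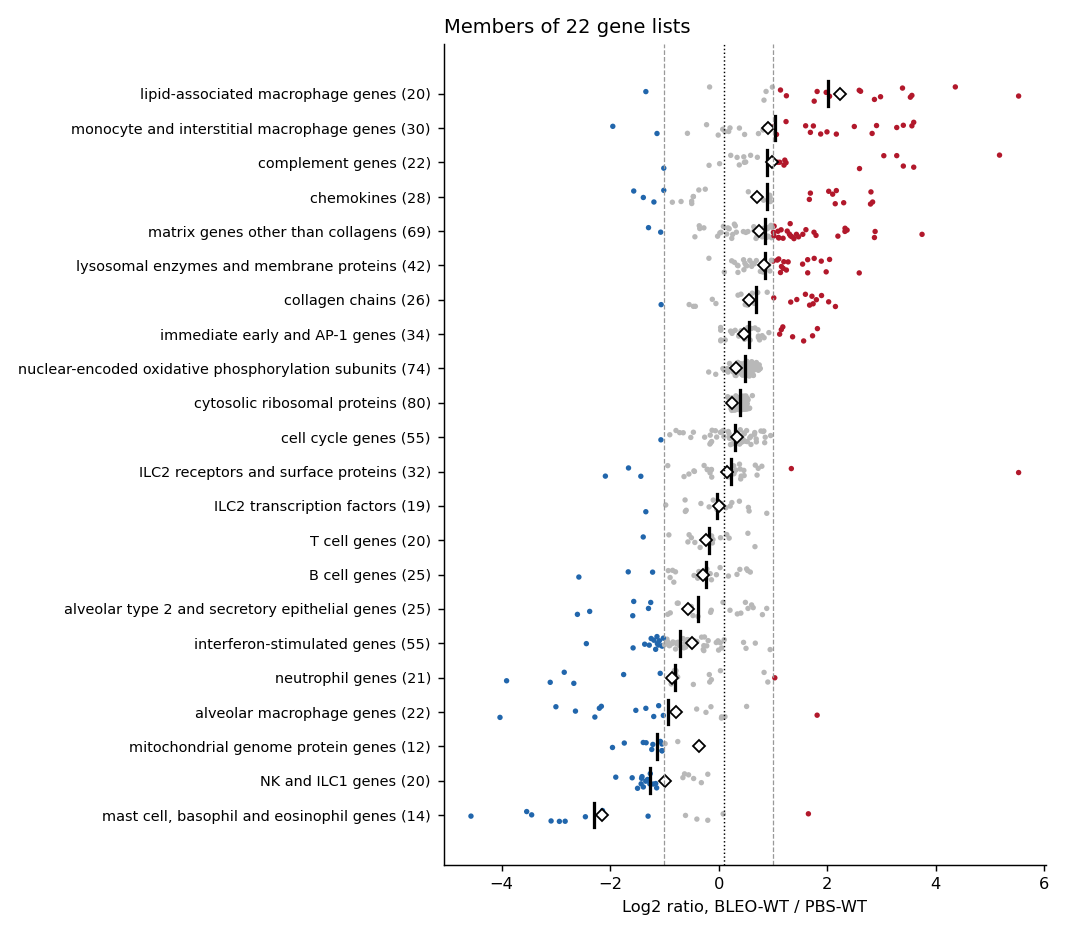
Log2 ratio of BLEO-WT to PBS-WT (x axis) for each compared member of 22 gene lists (rows, with the number of members). Points are genes, red at least 2-fold higher and blue at least 2-fold lower, vertical bars are medians, diamonds are medians with the GC content and length correction, the dotted line is the median of all genes (0.10) and dashed lines mark 2-fold. Medians of the lists shown run from 2.01 for lipid-associated macrophage genes to -2.30 for mast cell, basophil and eosinophil genes.

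The genes by which ILC2s are known differed little as lists. Of 19 ILC2 transcription factors none was higher and 1 was lower, with a median log2 ratio of -0.02, and of 32 receptors and surface proteins 2 were higher and 3 lower, with a median of 0.23 (-0.03 with library totals). *Rora*, a nuclear receptor needed for ILC2 development, was the 1 lower factor at 63.9 and 25.2 CPM (-1.34), and with the correction it was within 2-fold (-0.50). *Gata3* had a log2 ratio of -0.61 (-0.70 to -0.53), *Id2* of 0.55 and *Bhlhe40* of 0.89. Among the receptors *Cxcr6*, *Il18r1*, the IL-18 receptor chain (118 and 37.1 CPM, -1.66), and *Ptprc*, which encodes CD45 (1430 and 529 CPM, -1.43, corrected -0.94), were lower. The higher ones were *Arg1*, which is shared with macrophages, and *Calca*, the gene of the peptide CGRP (1.19 and 3.06 CPM). The sort markers *Icos* and *Il1rl1* had log2 ratios of -0.64 and -0.13 (corrected -0.27 and 0.30), and *Thy1* of -0.46 (corrected -0.70). Another ILC2 marker, *Il17rb*, was at 13.2 and 6.86 CPM (-0.94), and was past 2-fold lower with the correction (-1.05).

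Of the cytokine and growth factor genes listed for ILC2s, 15 were compared, 2 were higher, 1 lower and the median log2 ratio was 0.13 (-0.13 with library totals). With the correction 3 were higher and 3 lower, and the median was -0.10. The members named next as higher or lower are those without it. *Il10*, an inhibitory cytokine gene, was at 3.49 CPM in PBS-WT and 15.1 in BLEO-WT (2.10, 1.92 to 2.31) and *Osm*, oncostatin M of myeloid cells, at 307 and 737 CPM (1.26). *Areg*, amphiregulin, the epithelial growth factor of ILC2s, was at 17.4 and 33.0 CPM, a log2 ratio of 0.92 (0.83 to 1.02) on the inner side of the threshold, and *Hbegf* was at 6.66 and 12.7 CPM (0.93). *Il4* was the lower member at 2.31 and 0.663 CPM (-1.76). Another ligand of the EGF receptor, epiregulin (*Ereg*), was at 8.68 and 1.38 CPM (-2.63, corrected -1.86), and the receptor gene *Egfr* at 1.44 and 5.70 CPM (1.97). In the IL-1 family and inflammasome list, 2 of 23 genes were higher and 2 lower (median -0.02), with *Il1b* at 655 and 778 CPM and *Il18* lower at 64.9 and 24.6 CPM.

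Genes of NK cells and ILC1s were all below 0 and 14 of 20 were at least 2-fold lower, with a median log2 ratio of -1.26 (corrected -0.98, with 10 lower). *Ncr1*, the receptor NKp46, was at 7.09 CPM in PBS-WT and 1.89 in BLEO-WT (-1.90), the transcription factor genes *Eomes* and *Tbx21* were at 20.5 and 7.60 CPM and at 20.9 and 9.34 CPM, and the granzyme genes *Gzma* and *Gzmb* at 58.2 and 23.5 CPM and at 36.1 and 14.2 CPM. *Prf1*, perforin, was at 24.3 and 16.5 CPM (-0.55) and *Klrb1c*, which encodes NK1.1, at 16.5 and 10.7 CPM (-0.63). T cell genes differed less, with 1 of 20 lower (*Themis*, -1.39, corrected -0.51) and a median of -0.17. Of 47 T cell receptor segments 8 were lower and none higher (median -0.34), and the lower ones included the gamma chain constant genes *Tcrg-C1*, *Tcrg-C2* and *Tcrg-C4* (log2 ratios -1.21, -1.21 and -1.51, corrected -1.01, -0.99 and -1.27).

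In the B lineage, the transcripts of antibodies and of B cells differed from each other. *Ms4a1* and *Cd79a*, which mark B cells, were at 11.4 and 9.65 CPM and at 23.7 and 35.5 CPM. *Jchain*, the joining chain made by plasma cells, was at 78.3 CPM in PBS-WT and 13.1 in BLEO-WT (-2.58), *Igkc* at 239 and 75.2 CPM (-1.67) and *Ighm* at 573 and 247 CPM (-1.22). The gamma heavy chain gene *Ighg3* was at 23.5 CPM in PBS-WT and 0.536 in BLEO-WT. Of 218 immunoglobulin variable genes 74 could be compared, of which 45 were lower and 16 higher (median -2.27, corrected -2.18). This median depended on the filter of 1 CPM in either library. With no filter it was -0.12, and with a minimum of 10 CPM it was below -2.27. It is therefore not read as the size of a difference across these genes. The summed level over all 218 was 282 CPM in PBS-WT and 113 in BLEO-WT. These variable genes are near-identical copies between which the counting may have split reads, so single ones are not given. Of 25 B cell genes in all, 3 were lower, none higher and the median was -0.24.

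Of 14 genes of mast cells, basophils and eosinophils 9 were lower and 1 higher, and the median log2 ratio was -2.30 (corrected -2.15). In addition to *Ms4a2*, *Prss34* and *Mcpt8*, the mast cell carboxypeptidase gene *Cpa3* was at 7.45 CPM in PBS-WT and 1.67 in BLEO-WT (-2.14) and the IgE receptor alpha chain *Fcer1a* at 4.32 and 0.587 CPM (-2.83). The connective tissue mast cell proteases *Cma1* and *Tpsb2* were at 3.39 and 2.95 CPM and at 3.67 and 3.89 CPM, within 2-fold. Eosinophil peroxidase, *Epx*, had 7 reads in PBS-WT and 1 in BLEO-WT and was not compared. Of 21 neutrophil genes 6 were lower and 1 higher (median -0.79, corrected -0.86). The granule protein genes *Ltf*, *Ngp*, *Camp* and *Cd177* had log2 ratios of -3.10, -2.67, -2.85 and -1.75, while *S100a8* and *S100a9*, the abundant calgranulins, were at 325 and 188 CPM and at 517 and 287 CPM (-0.79 and -0.85). *Il1r2*, the decoy IL-1 receptor, was the 1 higher member at 37.2 and 76.3 CPM (1.04, corrected 0.95).

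Among 55 interferon-stimulated genes, which encode antiviral proteins and are switched on by the factor complex ISGF3 at a DNA element in their promoters, none was higher and 14 were lower (6 with the correction), with a median log2 ratio of -0.72 (corrected -0.49) and 48 below 0. *Ifi209*, a member of the interferon-inducible DNA sensor family whose genes are close copies, was lowest at 78.4 CPM in PBS-WT and 14.4 in BLEO-WT (-2.44, corrected -1.73). *Ifi203* was at 102 and 34.3 CPM (-1.58), *Slfn8* at 37.4 and 14.5 CPM (-1.36), *Oas3*, a sensor of double-stranded RNA, at 75.3 and 31.0 CPM (-1.28) and *Slfn5* at 179 and 80.2 CPM (-1.16). With the correction *Oas3* and *Slfn8* kept the call (-1.45 and -1.02) and *Ifi203* and *Slfn5* did not (-0.74 and -0.78). *Isg15* (13.4 CPM in both) and *Irf1* (221 and 304 CPM) were not lower, and *Cxcl10* was at 23.1 and 44.7 CPM (0.95).

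The core of the interferon response element was searched as GAAA, any 2 bases and GAAA again, on both strands, in RefSeq promoters of GRCm38.p6 that run from 250 bases before to 50 after a gene's start. It was found in 24 of the 41 list members with a promoter sequence (58.5%), in 8 of the 11 lower members with one, and in 3.99% of all 27025 genes. The 250 bases before the start are given 5′ to 3′ for the 4 members with the lowest ratios among those that hold it there, to show where the element lies, with the match in capitals. The match lies 35 bases before the start in *Ifi203* (chr1:173942493-173942742, minus strand), 48 in *Slfn8* (chr11:83020811-83021060, minus strand), 75 in *Oas3* (chr5:120777660-120777909, minus strand) and 155 in *Slfn5* (chr11:82951852-82952101, plus strand).
*Ifi203*: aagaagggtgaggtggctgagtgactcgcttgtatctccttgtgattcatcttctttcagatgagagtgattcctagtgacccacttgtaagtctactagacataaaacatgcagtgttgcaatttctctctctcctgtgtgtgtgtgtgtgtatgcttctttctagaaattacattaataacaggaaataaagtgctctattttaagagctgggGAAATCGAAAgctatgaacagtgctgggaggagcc
*Slfn8*: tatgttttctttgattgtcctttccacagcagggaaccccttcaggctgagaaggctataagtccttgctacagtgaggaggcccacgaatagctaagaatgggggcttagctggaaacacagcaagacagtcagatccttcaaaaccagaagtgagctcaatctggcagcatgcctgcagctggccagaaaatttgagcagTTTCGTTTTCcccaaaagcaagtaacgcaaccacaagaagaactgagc
*Oas3*: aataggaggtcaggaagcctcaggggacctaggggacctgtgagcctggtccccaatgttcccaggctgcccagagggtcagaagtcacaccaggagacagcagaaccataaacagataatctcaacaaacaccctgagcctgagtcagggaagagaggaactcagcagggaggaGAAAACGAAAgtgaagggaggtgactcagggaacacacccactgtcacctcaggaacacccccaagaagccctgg
*Slfn5*: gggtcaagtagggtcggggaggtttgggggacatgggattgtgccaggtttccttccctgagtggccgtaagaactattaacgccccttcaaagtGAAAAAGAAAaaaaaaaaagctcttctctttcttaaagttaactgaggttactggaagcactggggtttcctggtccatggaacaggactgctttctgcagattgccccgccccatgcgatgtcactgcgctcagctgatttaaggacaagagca
A match is a description of these letters and not a bound site. The same search found the antioxidant response element core TGACNNNGC in 7 of 18 NRF2 target genes (38.9%, against 14% of all genes), the CHR box TTTGAA in 21 of 45 cell cycle genes (46.7%, against 20.2%), the box CCAAT in 31 of 45 cell cycle genes (68.9%, against 41.1%) and the AP-1 site, TGA, any base and TCA, in 3 of 28 immediate early genes (10.7%, against 8.97%).

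Immediate early genes, which are switched on within minutes of a stimulus or of tissue handling, were all above 0 with TMM scaling and 7 of 34 were at least 2-fold higher (median 0.56, corrected 0.46, and 0.29 with library totals). *Fosb* was at 575 CPM in PBS-WT and 1704 in BLEO-WT (log2 ratio 1.57), *Socs3*, an inhibitor of cytokine signaling, at 409 and 1360 (1.73), *Ier3* at 156 and 551 (1.82) and *Nr4a3* at 57.6 and 131 (1.18). *Atf3* was at 378 and 488 CPM (0.37) and *Egr1* at 781 and 1318 CPM (0.75). Bleomycin breaks DNA, and among 35 target genes of p53, the factor that answers such damage, 3 were higher and 1 lower (median 0.29). Of all compared genes, 5.1% were higher and 8.17% lower (median 0.10), so this count is not read as a damage response. The cell cycle inhibitor gene *Cdkn1a* was at 274 and 702 CPM (1.35, 1.33 to 1.38), the death receptor gene *Eda2r* at 0.231 and 1.05 CPM and *Dcxr* at 17.8 and 39.2 CPM (1.14, corrected 0.84), whereas *Mdm2* (88.4 and 84.4 CPM) and *Bax* (107 and 167 CPM) were within 2-fold and *Perp* was lower at 66.6 and 19.6 CPM (-1.76). Of 55 cell cycle genes none was higher and 1 was lower (median 0.31), with *Mki67*, a marker of dividing cells, at 66.8 and 46.8 CPM and *Plk1* at 9.27 and 18.1 CPM.

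Stress and metabolism lists were mostly within 2-fold. No unfolded protein response gene passed the threshold (26 genes, median 0.20, or -0.07 with library totals), nor did any of 23 cholesterol synthesis genes (0.30). In the integrated stress response list 2 of 26 were lower, *Chac1* and the serine synthesis enzyme *Phgdh* (93.2 and 39.1 CPM, log2 ratio -1.25), and 2 of 18 heat shock genes were lower, *Hsp90aa1* (324 and 152 CPM, -1.09) and *Chordc1* (66.8 and 31.9 CPM, -1.07), both within 2-fold with the correction (-0.77 and 0.11). Of 24 NRF2 targets 4 were higher, among them the ferritin genes and the detoxifying enzyme *Ephx1* (39.8 and 101 CPM), while *Hmox1*, heme oxygenase 1, was at 57.8 and 106 CPM (0.87). Of 28 genes of glycolysis and hypoxia 1 was higher, *Pgam1* (49.0 and 143 CPM, 1.55), and of 27 genes of fatty acid and lipid handling 2 were higher and 2 lower (medians 0.54 and 0.11).

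Subunits of the respiratory chain differed by the genome that encodes them. Of 74 subunits encoded in the nucleus 72 were above 0 with TMM scaling and none was past 2-fold (median log2 ratio 0.48, corrected 0.32, and 0.21 with library totals). Of 12 protein genes of the mitochondrial genome 10 were lower, with a median of -1.14, but these transcripts are poor in GC, and with the correction 2 were lower and the median was -0.36. *mt-Co1* was at 9930 and 4816 CPM (-1.04, corrected -0.51) and *mt-Cytb* at 3104 and 1185 CPM (-1.39, corrected -0.80). *mt-Co2*, *mt-Co3* and *mt-Atp6* were at only 1.62, 2.55 and 2.05 CPM in PBS-WT, far below *mt-Co1* although they come from the same molecule, so these values are taken as uncertain. All 80 cytosolic ribosomal protein genes were above 0 with TMM scaling and within 2-fold, with a median of 0.39 (corrected 0.25, and 0.13 with library totals). Their log2 ratios ran from 0.17 to 0.62.

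Genes of the lung's structural cells gave mixed results. Of 25 alveolar type 2 and secretory cell genes 6 were lower and none higher (median -0.38, corrected -0.56). *Sftpc*, surfactant protein C, was at 816 CPM in PBS-WT and 343 in BLEO-WT (log2 ratio -1.25), *Lamp3* at 20.1 and 3.85 (-2.38) and *Epcam* at 61.8 and 20.6 (-1.58), while *Scgb1a1* of club cells was at 41.8 and 44.2. Of 17 alveolar type 1 genes 2 were higher and 2 lower (median 0.03, corrected 0.21). *Pdpn*, podoplanin, which macrophages can also make, was at 9.74 and 101 CPM (3.38), and *Ager* was at 58.4 and 93.8 CPM (0.68). *Akap5* was lower with a log2 ratio of -1.35 (corrected -0.91). Of 30 endothelial genes 3 were higher and 4 lower (median -0.12). *Lyve1*, shared by lymphatic vessels and interstitial macrophages, was at 45.3 and 138 CPM (1.60), and *Pecam1* at 182 and 176 CPM. No MHC class II gene passed 2-fold (11 genes, median 0.66), nor did any of 7 erythroid genes (0.21, or -0.06 with library totals), and of 20 dendritic cell genes 1 was higher, *Ccl17*, and 3 were lower, *Cd209a*, *Clec9a* and *Siglech* (log2 ratios -1.42, -1.37 and -1.32), with a median of -0.01. Of 10 histone genes compared 1 was higher.

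The same ratio in the Hps1-/- libraries was set beside these values. The 2 comparisons share no library, but in both genotypes the bleomycin library came from more cells. PBS-HPS1 was made from 38873 cells and BLEO-HPS1 from 128647. The part of cell number in changes shared by the genotypes was not tested. Of the 724 genes higher in BLEO-WT, 540 (74.6%) were also at least 2-fold higher in BLEO-HPS1 than in PBS-HPS1, where 25.6% of all compared genes were, and 4 were lower. Of the 1159 genes lower in BLEO-WT, 758 (65.4%) were lower in BLEO-HPS1, where 18.9% of all genes were, and 66 were higher. With the correction in both, the shares were 70.0% of 713, where 2124 of all genes were higher, and 43.0% of 777, where 1061 (7.49%) were lower. All 15 named genes that were higher were higher in both genotypes, including *Arg1* (4.59 and 257 CPM in Hps1-/-) and *Trem2* outside that set (20.5 and 423 CPM). Of the 14 lower genes reported here, 8 were at least 2-fold lower in both, such as *Ear1* (165 and 14.8 CPM) and *Fabp1* (30.9 and 1.31 CPM), and 6 were not. Those 6 were the neural genes *Mobp*, *Kif5a*, *Mal* and *Slc1a2*, the basophil gene *Prss34* and *Ltf*, and in all of them PBS-WT was the highest of the 4 libraries. PBS-WT was also the highest for most of the 8, such as *Ear1*, *Fabp1* and *Ms4a2*. All 14 were chosen by a low ratio of BLEO-WT to PBS-WT, which favors a high level in PBS-WT.

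**Figure D5:**
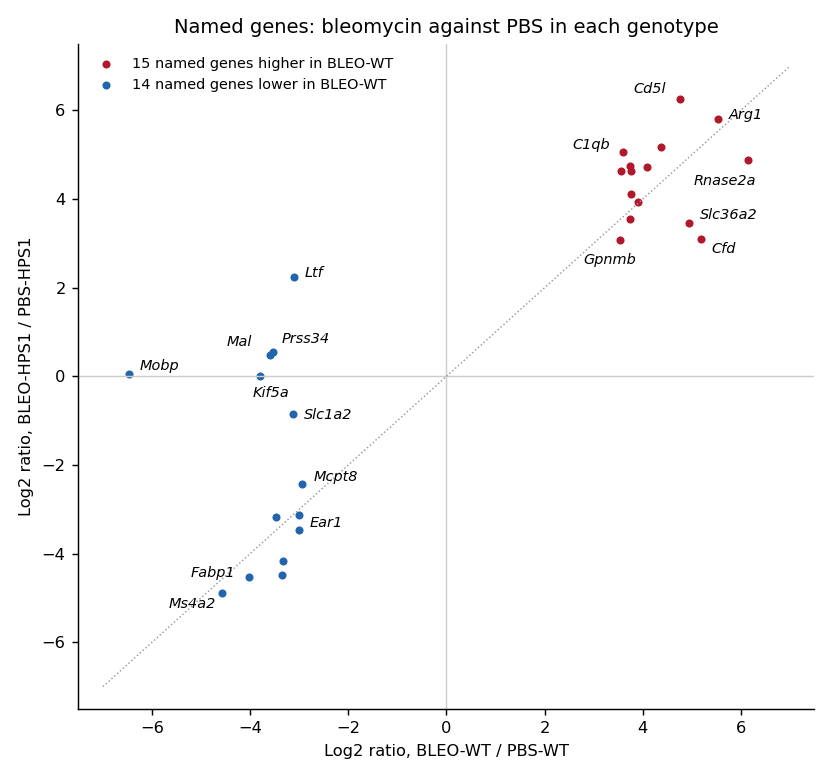
Log2 ratio of bleomycin to PBS in wild-type (x axis) and Hps1-/- libraries (y axis) for the 15 named genes higher (red) and 14 lower (blue) in BLEO-WT, chosen by the x value, with the line of equal ratios dotted. The red points lie at 3.07 or above on the y axis, and the 6 blue points near or above 0 are *Ltf* at 2.24, *Prss34*, *Mal*, *Mobp*, *Kif5a* and *Slc1a2*.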

How the data were processed

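RNA-Seq was measured in 4 libraries, 1 per group, and the 2 from wild-type mice were compared. The authors deposited raw counts of reads per gene, not normalized, from libraries made with a SMARTER mRNA-Seq kit. The aligner, counting tool and genome build are not given in the sources used here. TMM factors over the 4 libraries and log2 CPM with a prior count of 2 were computed with edgeR 4.0.16 in R 4.3.3. CPM and log2 ratios were also taken in R, and counts and gene lists were tabulated with pandas 2.3.3. Genes with at least 1 CPM in either wild-type library were kept. Intervals are exact Clopper-Pearson 95% intervals (SciPy 1.17.1) on the split of a gene's reads between the libraries; since reads made by PCR are not independent molecules, they cover counting error only. Transcript length and GC content were corrected for by loess with a span of 0.3. Alternatives were DESeq2 1.42.0 size factors, library totals, TMM on the wild-type libraries alone, prior counts of 0.5 and 10, no filter, a minimum of 10 CPM, a 4-fold threshold and correction for GC content alone. The steps were tested on simulated data with known ratios. Named genes were the 15 highest and 15 lowest ratios among protein-coding genes that reached 10 CPM in 1 library and held 3 or more reads in the other, past 2-fold with and without the correction, leaving out antigen receptor segments and unnamed gene models. To these were added members of each list with high levels or large ratios, the sort and lineage genes and cell type markers, and genes said to be chosen after their values were seen. The libraries and gene lists were chosen with earlier results of these data known. Some genes, such as *Arg1*, belong to more than 1 list, so the lists are not independent of each other. Coordinates and promoters are from RefSeq and the reference annotation of GRCm38. A few genes are not reported here.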

Additional observations from a re-analysis of the deposited data

Results flagged for a closer look

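The 1287 genes looked at included 74 immunoglobulin variable genes. The ratios of bleomycin to PBS were past 2-fold in opposite directions in the 2 genotypes for 28 of these 74. The same held for 11 of the genes that are not immunoglobulin variable genes. With 1 library per group the difference between genotypes was not tested. Of the 11, 10 were lower in BLEO-WT than in PBS-WT and higher in BLEO-HPS1 than in PBS-HPS1. Over all 14191 compared genes, 66 that were lower in BLEO-WT were past 2-fold higher in BLEO-HPS1. The reverse held for 4, so this direction is not particular to the 11. The neutrophil granule genes *Camp*, *Ltf* and *Ngp* had log2 ratios of -2.85, -3.10 and -2.67 in wild type and 3.45, 2.24 and 2.46 in Hps1-/-. Their levels in PBS-WT, at 8.68, 70.0 and 74.8 CPM, were the highest of the 4 libraries. The antibody genes *Ighm* and *Igkc* had ratios of -1.22 and -1.67 in wild type and 1.65 and 1.45 in Hps1-/-. The granzyme gene *Gzmk* had -1.41 and 1.99, the monocyte gene *Ly6c2* -1.14 and 1.22, the chemokine gene *Cxcl9* -1.19 and 1.11, the interferon-stimulated gene *Ifit3b* -1.09 and 1.01 and the decoy chemokine receptor gene *Ackr4* -1.16 and 1.21. *Nr4a2*, an immediate early gene, was the 1 gene of the 11 with the reverse pattern, at 1.16 in wild type (43.6 and 97.3 CPM) and -1.16 in Hps1-/- (68.7 and 30.6 CPM).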

How the results depend on the processing

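Beside 724 genes higher and 1159 lower, the counts moved by over 1.5 times with library totals (432 higher and 1862 lower), with no filter (2417 and 6330, which adds genes of few reads), with a minimum of 10 CPM (447 and 443, from fewer genes) and at 4-fold (155 and 264). They stayed within 1.5 times with DESeq2 size factors (686 and 1198), TMM on the wild-type libraries alone (724 and 1149), prior counts of 0.5 (725 and 1179) and 10 (688 and 1102), and correction for GC content with length (713 and 777) or alone (717 and 780). Of 333 genes past 2-fold in the lists and among those named, 270 stayed past it with the correction for GC content and length, 268 with that for GC content and 327 with DESeq2 size factors. The sign turned for *Chordc1* (-1.07 to 0.11 with GC content and length and 0.041 with GC content) and *mt-Nd6* (-1.07 to 0.034 with GC content). Of 7 lists whose median was past 2-fold, 4 stayed past it with either correction and 6 with library totals. With no filter 6 stayed past it, and the immunoglobulin variable genes did not (median -0.12). No paired analysis was possible because each group had 1 library and the labels give no replicate numbers. With 1 library per group, treatment cannot be told apart from differences between mice, sorts or library preparations.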
